A study of Homo sapiens with 6 samples.

Results

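The enzymes described here are the aminoacyl-tRNA synthetases of human P493-6 cells, measured at 3 levels of c-Myc. The list has 37 genes: 19 synthetases of the cytosol, 16 of the mitochondrion (named with the suffix 2), and AIMP1 and AIMP2, scaffold proteins of the cytosolic multi-synthetase complex. A gene was represented by its brightest probe set over the 6 arrays, among probe sets that map to 1 gene. Of the 37 genes, 36 had such a probe set and 35 were bright enough to be tested, out of 12198 genes tested and 18244 genes with a probe set. AIMP2 had no probe set of its own. PARS2, the mitochondrial prolyl-tRNA synthetase, lay below the brightness limit of 33.8 intensity units. No tested member passed that limit through 1 group alone, since the dimmest low-Myc pair, EARS2, read 82.2 and 80.1.

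P493-6 is labelled as B-cell lymphoma and is known as an EBV-immortalised B lymphoblastoid line that serves as a lymphoma model. It carries a c-Myc transgene that tetracycline represses. All 3 groups carry the transgene and differ in how long it had been released: 0 hours in low-Myc, 1 hour in mid-Myc and 24 hours in high-Myc cells, with 2 arrays each. The growth protocol and the treatment protocol of mid-Myc disagree on the time, 0 against 1 hour, and 1 hour is used here. The design text describes the duplicates as biological, and the line is 1 cell model under 1 switch.

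Aminoacyl-tRNA synthetases load each tRNA with its amino acid, so that every codon is read as the right residue. The cytosol and the mitochondrion each need a full set, and for most amino acids a separate nuclear gene encodes the mitochondrial enzyme. Several cytosolic enzymes sit in a large complex held together by AIMP proteins, while the others are free. Myc is known as an activator of ribosome and translation genes, and many cytosolic synthetases are also known targets of ATF4, the transcription factor of the amino acid response.

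The deposited values are probe set intensities, and each change below is a difference of log2 intensities on 1 of 2 scales. The per-cell scale takes the synthetic ERCC RNAs, added by cell number, as level between arrays. The equal-median scale gives each array the same median human probe set, and so reads a gene against the other genes of its own array. The median ERCC intensity was 83.0 and 74.3 in low-Myc, 61.6 and 60.01 in mid-Myc and 37.9 and 37.2 in high-Myc, while the median human probe set stayed between 44.5 and 50.2. Fewer cells and less RNA per cell cannot be told apart on bulk arrays except through those added RNAs. Replicate arrays correlated at 0.996 in each group over tested genes. The MYC probe set read 10472 and 10279 in low-Myc, 10031 and 9941 in mid-Myc and 11888 and 11979 in high-Myc, a rise of 0.34 on the equal-median scale and 0.96 per cell at 24 hours. At 1 hour the corresponding MYC values were 0.095 and 0.13. The deposited mid-Myc intensities lay below those of low-Myc, so the direction of MYC on the array at 1 hour rests on the scaling. Whether the MYC probe set reads the transgene is not known, so these values do not measure the size of the switch. The B-cell markers MS4A1, CD79A, CD79B, CD22, PAX5 and CD74 were all present, at mean intensities from 460 (CD22) to 11519 (MS4A1). The T and NK cell markers lay between 19.1 and 58.6, and of the monocyte markers CD14 and FCGR3A were at 17.3 and 6.88 but LYZ and CD68 at 836 and 149. Among tested markers at 24 hours on the equal-median scale, 5 of 6 B-cell markers were lower and 1 higher. Of the others, 2 of 3 monocyte markers and 1 of 4 T and NK cell markers were lower, and 1 of 4 plasma cell markers was higher. Of all tested genes 37.7% were higher and 26% lower. Centred on the tested genes, 4 of 4 T and NK cell markers and 3 of 3 monocyte markers were lower, as were 3 of 4 T and NK cell markers as deposited, and no B-cell marker was higher under the 4 other scalings. Per cell, 4 of 6 B-cell, 3 of 4 T and NK cell and 4 of 4 plasma cell markers were higher, beside 91% of all tested genes. Lower per cell were 1 B-cell, 1 T and NK cell and 1 of 3 monocyte markers, beside 2.47%. The direction of most B-cell markers thus depends on the scale. The part of these markers in the synthetase results was not tested.

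After 24 hours of release, synthetase genes of both compartments rose together, and they rose more than the typical gene. Per cell, all 35 tested members were called higher and 34 of them by 2-fold or more, where 91% of all tested genes were called higher, 48.9% by 2-fold or more, and 2.47% lower. The members' median change was 1.98, a 3.94-fold rise, beside 0.98 for all tested genes. Relative to the other genes of the array, on the equal-median scale, 32 of 35 members were called higher and none lower, against 37.7% higher and 26% lower among all tested genes. In this comparison 16 members rose by 2-fold or more, beside 11.1% of all genes, and the members' median was 0.84 beside 0.054. Calls are from limma with Benjamini-Hochberg adjustment over all 12198 genes at 0.05.

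The cytosolic and the mitochondrial sets moved by similar amounts at 24 hours. Of the 19 cytosolic enzymes 18 were called higher on the equal-median scale, 9 of them by 2-fold or more, with a median of 0.82. Of the 15 tested mitochondrial enzymes 13 were called higher, 7 of them by 2-fold or more, with a median of 0.96. Among all tested genes 37.7% were called higher, 11.1% by 2-fold or more, and 26% lower. Per cell the cytosolic and mitochondrial medians were 1.89 and 2.01. Array by array, the median of the cytosolic enzymes was 8.88 and 8.77 in low-Myc, 8.97 and 9.02 in mid-Myc and 9.70 and 9.71 in high-Myc, in log2 units. That of the mitochondrial enzymes was 7.10 and 7.06, then 7.09 and 7.23, then 7.73 and 7.87. The difference between the 2 median changes, -0.13, has no settled sign, since it was 0.069 when the probe sets of a gene were averaged. The cytosolic probe sets were brighter (median intensity 526) than the mitochondrial ones (158). All tested genes within the middle range of each set had median changes of 0.14 and 0.16. The part of brightness in the comparison of the compartments was not tested.

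Within the cytosol the largest rise belonged to FARSB, the β subunit of phenylalanyl-tRNA synthetase. FARSB read 268 and 266 in low-Myc, 243 and 257 in mid-Myc and 1179 and 1158 in high-Myc. The low-Myc and mid-Myc arrays overlapped on the equal-median scale but not per cell, where mid-Myc was higher by 0.29, and both high-Myc arrays stood far above them on either scale. FARSB rose by 2.27 ± 0.064 (SE, 2 arrays per group; limma adjusted p = 4.07e-12), or 4.81-fold, on the equal-median scale and 10.6-fold per cell. Its 3 other probe sets above the limit rose by 2.65 to 2.87. FARSA, the α subunit of the same enzyme, read 143 and 122 in low-Myc, 144 and 123 in mid-Myc and 256 and 273 in high-Myc, a rise of 1.14 ± 0.097 (SE). The difference between the subunits was not tested.

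The 7 enzymes of the multi-synthetase complex were all called higher on the equal-median scale, beside 37.7% of all tested genes higher and 26% lower. Their median was 1.21, with a range of 0.51 to 1.71. EPRS1, a fused enzyme that charges both glutamate and proline, read 285 and 271 in low-Myc, 249 and 233 in mid-Myc and 841 and 806 in high-Myc, a rise of 1.71 ± 0.065 (SE; limma adjusted p = 4.98e-11). LARS1, the leucyl enzyme that is also known as a leucine sensor, read 573 and 557, then 488 and 495, then 1579 and 1607, a rise of 1.63. IARS1, the isoleucyl enzyme, read 1374 and 1357, then 1408 and 1304, then 3763 and 3838, a rise of 1.62. In each of these 3 genes both high-Myc arrays lay above the other 4. RARS1 (arginyl) and KARS1 (lysyl) rose by 1.21 and 1.15, MARS1 (methionyl) by 0.72 and QARS1 (glutaminyl) by 0.51. The other probe sets above the limit gave 1.29 for RARS1, 1.39 for KARS1, 0.06 to 0.84 for MARS1 and 0.18 for QARS1. AIMP1 rose by 0.84, from 543 and 549 to 914 and 865.

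The 12 free cytosolic enzymes had a median of 0.73 and spread more widely, from 0.054 to 2.27. After FARSB, VARS1 (valyl) and GARS1 (glycyl) had the largest rises in the probe sets used, 1.52 and 1.34, while the other VARS1 probe set above the limit gave 0.52 and that of GARS1 1.39. GARS1 and KARS1 each encode both the cytosolic and the mitochondrial form of their enzyme, and without them the cytosolic median was 0.76 over 17 genes. GARS1 read 911 and 863 in low-Myc, 952 and 952 in mid-Myc and 2038 and 2033 in high-Myc. The high-Myc arrays were again apart from the rest. NARS1, HARS1, YARS1, AARS1 and SARS1 (for asparagine, histidine, tyrosine, alanine and serine) rose by 0.82, 0.76, 0.70, 0.62 and 0.51. TARS1, the threonyl enzyme, rose by 0.42 ± 0.13 (limma adjusted p = 0.0108), with replicates far apart in low-Myc (1136 and 810) and high-Myc (1323 and 1033). Without the second low-Myc array the TARS1 change was 0.17 and without the first high-Myc array 0.26, neither of which was called (limma adjusted p = 0.216 and 0.101), and it was not called under the 4 other scalings (0.21 to 0.29), while its other probe sets gave 0.69 and 0.82.

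Among the mitochondrial enzymes MARS2, EARS2 and NARS2 rose most. MARS2, which loads methionine, rose by 2.61 and is described in its own right below. EARS2 loads glutamate, and also mischarges the mitochondrial glutamine tRNA for later amidation. It read 82.2 and 80.1 in low-Myc, 78.2 and 73.8 in mid-Myc and 300.02 and 304 in high-Myc, a rise of 2.04 ± 0.081 (SE; limma adjusted p = 7.07e-11) or 4.10-fold. NARS2, for asparagine, read 214 and 226, then 194 and 192, then 581 and 578, a rise of 1.54. In EARS2 and NARS2 alike the mid-Myc arrays were close to the low-Myc arrays and the high-Myc arrays far above. YARS2, IARS2, WARS2 and CARS2 (tyrosine, isoleucine, tryptophan, cysteine) rose by 1.38, 1.27, 1.27 and 1.07, and VARS2 (valine) by 0.96. The other probe sets of EARS2 above the limit rose by 0.98 and 1.11, less than the one used, and a dimmer one gave 0.0025. For CARS2 the other probe sets disagreed in sign, at 0.47 and -0.61. FARS2, TARS2, AARS2, LARS2 and HARS2 (phenylalanine, threonine, alanine, leucine, histidine) had smaller called rises of 0.67, 0.55, 0.45, 0.43 and 0.31. The other probe set above the limit gave 0.14 for FARS2, 0.17 for TARS2, 0.82 for AARS2 and -0.02 for HARS2. Other ways of scaling lost the calls of AARS2, LARS2 and HARS2, and LARS2 was not called without the second low-Myc array (0.25, limma adjusted p = 0.0519).

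A few members kept pace with the array and no more. CARS1, the cytosolic cysteinyl enzyme, read 303 and 287 in low-Myc, 304 and 280.01 in mid-Myc and 280.1 and 276 in high-Myc, a change of 0.054 ± 0.069 (SE; limma adjusted p = 0.523). RARS2 (mitochondrial arginyl) read 224 and 223, then 183 and 199.99, then 201 and 208, a change of 0.01. SARS2 (mitochondrial seryl) read 95.7 and 96.9, then 90.6 and 88.6, then 85.2 and 90.9, a change of 0.0089. All 3 were uncalled on the equal-median scale, with limma adjusted p of 0.523, 0.916 and 0.942, yet were called higher per cell, by 1.18, 1.10 and 0.96. When arrays were centred on the tested genes, RARS2 and CARS1 were called lower, by -0.19 and -0.15, so their direction relative to the array is not settled. WARS1, the tryptophanyl enzyme that interferon-γ is known to induce, read 501 and 486, then 555 and 546, then 518 and 551. Its rise at 24 hours was 0.25 ± 0.062 (limma adjusted p = 0.00273), but it was not called under the 4 other scalings (0.04 to 0.12), nor when its probe sets were averaged (-0.056). PARS2 read 20.5 and 25.1 in low-Myc, 23.2 and 19.5 in mid-Myc and 46.9 and 50.7 in high-Myc. Its 2 high-Myc arrays were the brightest, but it was not tested.

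**Figure D1:**
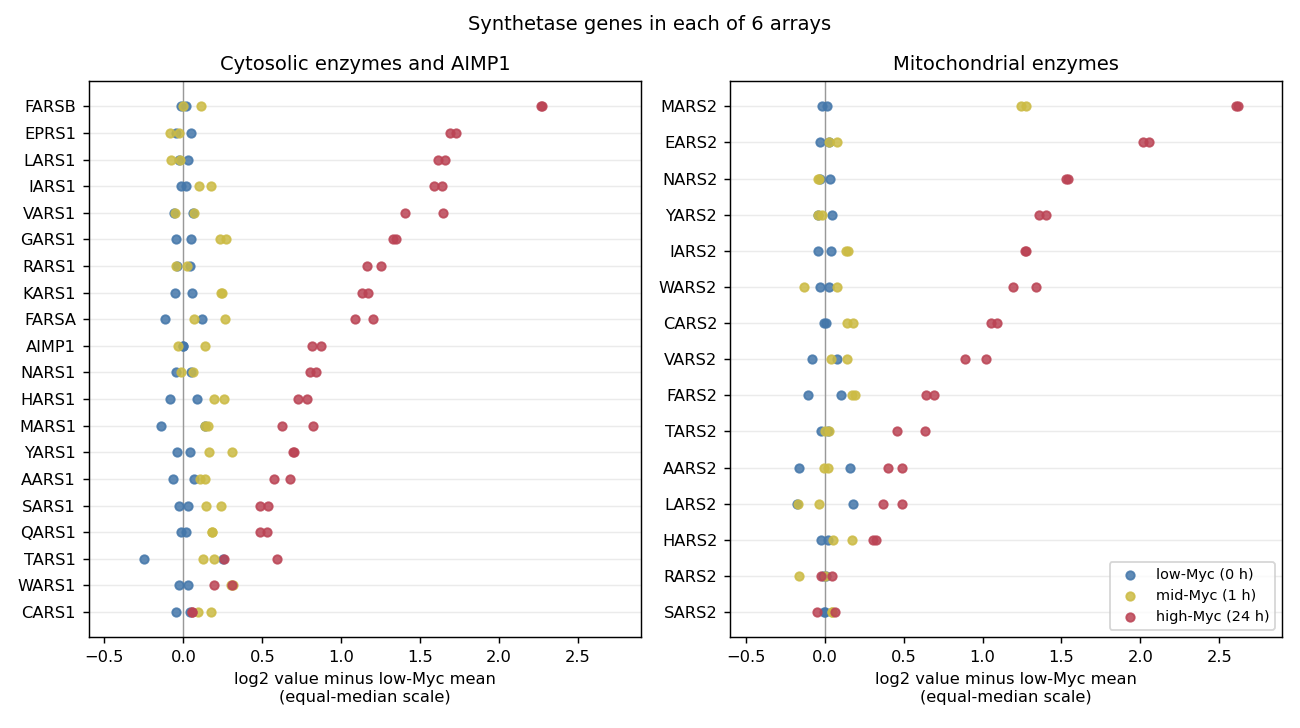
Each point is 1 array, plotted as its log2 value minus the low-Myc mean of that gene on the equal-median scale, for the 20 tested cytosolic genes (AIMP1 included) and the 15 tested mitochondrial ones. High-Myc points lie to the right for most genes, up to 2.61 for MARS2, and mid-Myc points stay near 0 except for MARS2 at 1.26.

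In the probe sets used, MARS2, the mitochondrial methionyl-tRNA synthetase, had the largest rise of all members at both times. It was the only member at least 2-fold higher at 1 hour. Its probe set read 146 and 144 in low-Myc, 313 and 313 in mid-Myc and 806 and 803 in high-Myc. The 3 pairs did not overlap, and replicates of a pair lay within a few units of each other. At 1 hour MARS2 was higher by 1.26 ± 0.064 (SE; limma adjusted p = 3.98e-08), or 2.39-fold, on the equal-median scale and 2.83-fold per cell. Only 46 of 12198 genes, 0.377%, were called higher by 2-fold or more at 1 hour on the equal-median scale (0.877% per cell), and MARS2 ranked 20th by size of rise. At 24 hours the rise was 6.12-fold on the equal-median scale and 13.5-fold per cell, and MARS2 ranked 40th. Its 2 other probe sets moved the same way by smaller amounts, 0.70 and 0.58 at 1 hour and 1.78 and 1.49 at 24 hours. At 24 hours 3 other probe sets of FARSB rose by more than any of MARS2, 2.65 to 2.87. Under the other scalings the 1-hour change of MARS2 stayed between 1.11 and 1.14, and it was 0.84 when its probe sets were averaged, called in each case. MARS1, the cytosolic enzyme for methionine, read 248 and 207 in low-Myc, 231 and 222 in mid-Myc and 320.1 and 361 in high-Myc. Its change at 1 hour, 0.15, was not called (limma adjusted p = 0.275).

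**Figure D2:**
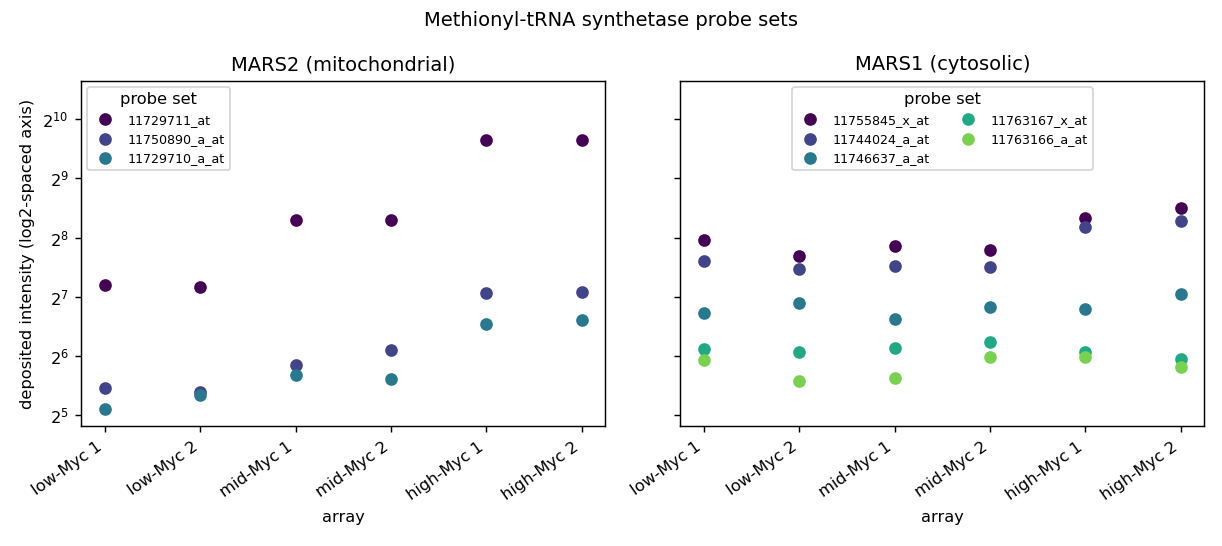
Deposited intensity of every probe set of MARS2 (left) and MARS1 (right) in the 6 arrays, on a log2-spaced axis. All 3 MARS2 probe sets step up from low-Myc to mid-Myc and again to high-Myc, the brightest from 146 and 144 to 806 and 803, and levels of different probe sets are not comparable.

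The 100 bases upstream of the MARS2 start site come from RefSeq on GRCh38.p14, at chr2:197705269-197705368 on the plus strand. They are shown because this gene had the largest change of the list at both times in the probe sets used. Capitals mark CACGTG, the E-box that Myc and its partner Max are known to bind, which begins 11 bases before the start site. The stretch is 73% G and C.
MARS2 upstream: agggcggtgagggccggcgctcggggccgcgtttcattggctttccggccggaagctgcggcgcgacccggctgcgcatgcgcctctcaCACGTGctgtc

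At 1 hour the synthetases as a group had moved little beyond the rest of the array. Per cell, 31 of 35 members were called higher and none lower, beside 62.7% of all genes higher and 0.672% lower, with a median of 0.32 for the members and 0.30 for all tested genes. On the equal-median scale 10 of 35 were called higher and none lower, beside 25.7% and 3.39% of all genes, with medians of 0.11 and 0.091. Of the 10, 8 were cytosolic (of 19) and 2 mitochondrial (of 15), and the compartment medians were 0.15 and 0.045. The count differed between scalings. So did the median of all tested genes, which went from 0.091 to as low as -0.06 (at 24 hours, from 0.054 to as low as -0.15). With quantile normalization, cyclic loess or the values as deposited, 1 member was called higher, MARS2, and 4 lower. Leaving out the second low-Myc or the second mid-Myc array left 5 members called higher, and leaving out the first mid-Myc array 6.

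WARS1, GARS1 and KARS1 had the next largest called changes at 1 hour, 0.31, 0.25 and 0.24. WARS1 went from 501 and 486 to 555 and 546, and its 24-hour arrays (518 and 551) stood no higher than those at 1 hour. These 3 and MARS2 were the 4 members also called higher when arrays were centred on the tested genes. YARS1, HARS1, SARS1, QARS1, CARS2 and IARS1 were called at 0.24, 0.22, 0.19, 0.18, 0.16 and 0.14. The change of IARS1 turned negative with quantile normalization (-0.068), cyclic loess (-0.061) and as deposited (-0.01), that of CARS2 with quantile normalization and cyclic loess (-0.01 each) and that of QARS1 with quantile normalization (-0.00026). The direction of these 3 at 1 hour is therefore not settled. FARS2 (0.18), IARS2 (0.14), HARS2 (0.11) and VARS2 (0.09) were not called.

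Several of the strongest responders at 24 hours had no called rise at 1 hour relative to the other genes of the array. On the equal-median scale EPRS1 (-0.06), LARS1 (-0.05), NARS2 (-0.04), YARS2 (-0.03), WARS2 (-0.03) and RARS1 (-0.01) were near 0, as were LARS2 (-0.10), RARS2 (-0.08) and VARS1 (0.01). LARS1 was called lower under each of the other 4 scalings, from -0.17 to -0.22, and EPRS1 under 3 of them, from -0.20 to -0.21. NARS1, at 0.02 on the equal-median scale, was called lower by quantile normalization (-0.19) and cyclic loess (-0.18). RARS1 was called lower by the same scalings (-0.17 and -0.16), and NARS2 (-0.19) and RARS2 (-0.23) as deposited. Per cell these genes had positive changes, 0.18 for EPRS1 and 0.17 for LARS1, and all but LARS2, RARS2 and WARS2 were called higher. Their direction at 1 hour thus depends on the scale. AARS2, LARS2, RARS2 and WARS2 were the 4 members not called per cell, all mitochondrial.

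**Figure D3:**
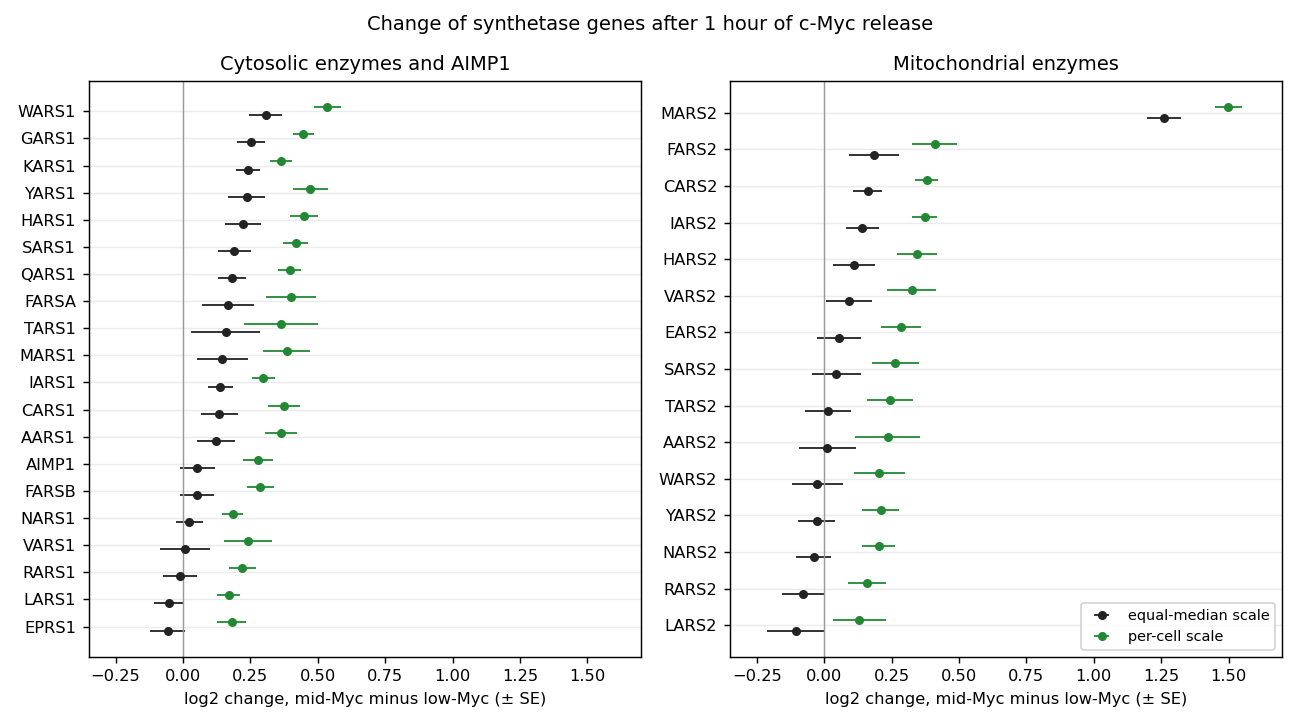
Change from low-Myc to mid-Myc of each tested member (log2, ± SE from limma) on the equal-median scale (black) and per cell (green). MARS2 lies apart, at 1.26 on the equal-median scale, and the other members lie between -0.10 and 0.54.

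Between 1 and 24 hours 30 of 35 members were called higher and none lower on the equal-median scale, beside 33.3% of all tested genes higher and 30.9% lower. Per cell all 35 were called higher, beside 81.8% higher and 6.48% lower. By 2-fold or more, 13 members rose on the equal-median scale and 31 per cell, beside 9.05% and 33% of all genes. The members' median was 0.80 (1.65 per cell), beside 0.025 (0.72 per cell) for all genes. The cytosolic and mitochondrial medians were 0.80 and 0.86. FARSB (2.21), EARS2 (1.98), EPRS1 (1.76) and LARS1 (1.68) led this interval, then NARS2, VARS1, IARS1, YARS2 and MARS2 (1.57, 1.52, 1.48, 1.41 and 1.35). On this scale the MARS2 probe set used rose by 1.26 in the first hour and by 1.35 after it, while its other probe sets (0.70 then 1.09, and 0.58 then 0.92) and the per-cell values (1.4997 then 2.25) had the larger rise in the later interval. Of the genes that led this interval, FARSB, EARS2, EPRS1, LARS1, NARS2, VARS1 and YARS2 had called rises only in the later interval on this scale. The 5 uncalled members were TARS1 (0.27), RARS2 (0.09), SARS2 (-0.04), WARS1 (-0.05) and CARS1 (-0.08). All 5 were called higher per cell. Centred on the tested genes, CARS1 (-0.17) and WARS1 (-0.14) were called lower in this interval, and so was WARS1 when its probe sets were averaged (-0.23). This comparison shares its arrays with the others, so the values are given side by side only.

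For 13 amino acids the list holds both a cytosolic and a mitochondrial enzyme, and here the 2 compartments parted, in both directions. At 24 hours the cytosolic partner had the larger change in 7 pairs and the mitochondrial one in 6 (6 and 7 when probe sets were averaged), and the difference ran from -1.89 to 1.20. A difference within an array is free of any factor common to that array, and only their change between groups is read. For methionine, log2 MARS1 minus MARS2 was 0.77 and 0.52 in low-Myc, -0.44 and -0.50 in mid-Myc and -1.33 and -1.15 in high-Myc. The balance moved toward the mitochondrial enzyme at both steps. For leucine, LARS1 minus LARS2 was 1.63 and 1.93, then 1.88 and 1.80, then 3.02 and 2.95. For arginine, RARS1 minus RARS2 was 0.86 and 0.80, then 0.94 and 0.84, then 2.02 and 2.04. Leucine and arginine thus moved toward the cytosolic enzyme by 1.20 each, of which 0.05 and 0.07 had appeared by 1 hour. Cysteine and tryptophan went the other way, by -1.02 and -1.01: CARS1 minus CARS2 went from -1.05 and -1.12 to -2.08 and -2.12, and WARS1 minus WARS2 from 2.31 and 2.32 to 1.32 and 1.29. The cysteine value rests on the CARS2 probe set used, since the others gave 0.47 and -0.61, and the last would turn its direction. The other WARS2 probe sets gave 0.67 and 0.72. The smallest differences were those of threonine (-0.12), alanine (0.18) and isoleucine (0.34), and for threonine and alanine the arrays of the groups overlapped. The other probe sets of TARS1 (0.69 and 0.82) would turn the direction for threonine, and that of AARS2 (0.82) the direction for alanine. With 2 arrays against 2, an exact two-sided permutation test of any pair cannot give a p below 0.333.

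**Figure D4:**
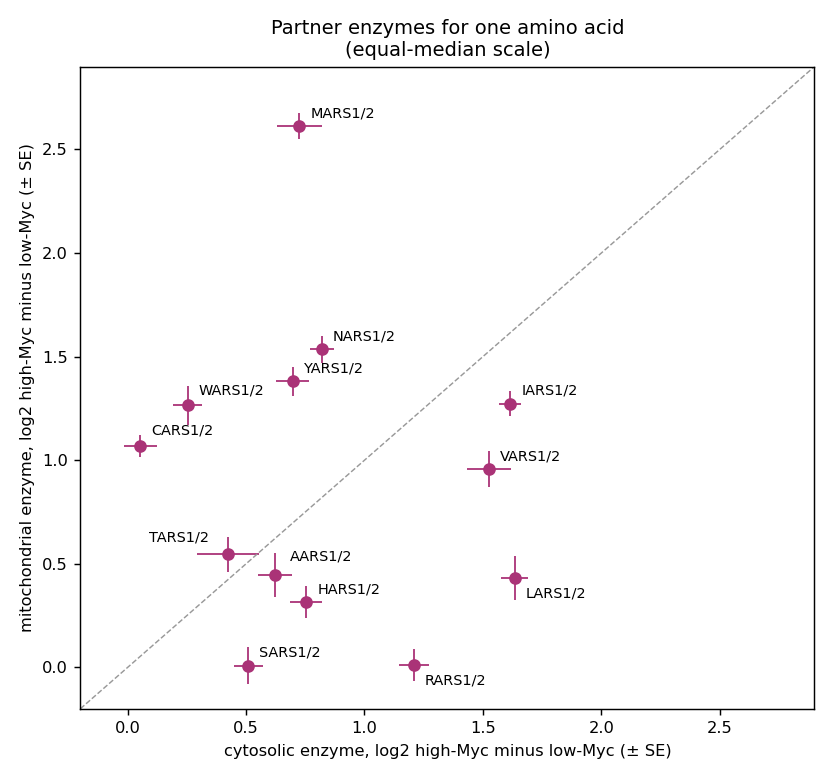
Each point is 1 amino acid, with the change of its cytosolic enzyme from low-Myc to high-Myc on the horizontal axis and that of its mitochondrial enzyme on the vertical axis (log2, equal-median scale, ± SE from limma). The dashed line marks equal change. MARS1/2 lies farthest above the line, with LARS1/2 and RARS1/2 farthest below.

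HARS1 and HARS2, the histidine pair, lie head to head and are read from opposite strands. The 84 bases between their start sites (RefSeq, GRCh38.p14, chr5:140691371-140691454, plus strand, 59.5% G and C) are shown because both genes start from this stretch, and no capitals are used.
between HARS1 and HARS2: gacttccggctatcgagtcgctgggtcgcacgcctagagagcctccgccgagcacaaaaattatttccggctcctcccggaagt
HARS1 read 523 and 469 in low-Myc, 516 and 527 in mid-Myc and 750 and 770 in high-Myc, a rise of 0.76 ± 0.068 (SE; limma adjusted p = 2.46e-07). HARS2 read 146 and 152, then 141 and 149, then 171 and 166, a rise of 0.31 ± 0.078 (SE; limma adjusted p = 0.00286). HARS1 minus HARS2 went from 1.84 and 1.63 to 2.14 and 2.21, without overlap, and the other HARS2 probe set gave -0.02.

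Sequence around the start sites was searched in RefSeq windows of 250 bases before to 50 after the start (GRCh38.p14), which were found for 32 of the 37 genes. VARS1, VARS2, AARS2, YARS1 and LARS1 had no window in the table. The E-box CACGTG, a palindrome, was present in 5 of 32 (15.6%): the mitochondrial MARS2, EARS2 and CARS2, the cytosolic IARS1, and AIMP2. It was present in 12.5% of 9953 tested genes with a window and 7.26% of all 35116 windows. By compartment it was found in 21.4% of 14 mitochondrial and 6.25% of 16 cytosolic enzymes. In the probe sets used, the 24-hour changes of the 4 tested members with the E-box were 2.61 (MARS2), 2.04 (EARS2), 1.62 (IARS1) and 1.07 (CARS2). The other CARS2 probe sets gave 0.47 and -0.61. The 2 largest cytosolic rises, FARSB and EPRS1, had no CACGTG in their windows. Over all tested genes the median change was 0.17 with the E-box and 0.055 without it at 24 hours, and 0.11 and 0.094 at 1 hour. No relation between the element and the changes was tested. The 30 bases around each site are given with CACGTG in capitals, read along the gene's strand, at chr16:23557348-23557377 (EARS2, minus), chr13:110706501-110706530 (CARS2, minus) and chr9:92293866-92293895 (IARS1, minus).
EARS2: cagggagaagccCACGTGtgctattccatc
CARS2: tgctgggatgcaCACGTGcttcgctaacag
IARS1: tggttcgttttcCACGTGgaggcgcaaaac

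The element TGATGNAA, the core of the composite site that ATF4 is known to bind, was searched on both strands in the same windows. It was present in 7 of 16 cytosolic enzymes (43.8%: AARS1, CARS1, GARS1, IARS1, MARS1, NARS1 and TARS1) and in 1 of 14 mitochondrial enzymes (7.14%, YARS2). Of the tested genes 2.83% held it, and of all windows 3.62%. In no window did it overlap CACGTG, and IARS1 held both. The sites below are given because 5 of the cytosolic genes share the same 8 letters in this orientation, and GARS1 differs within them. Capitals mark the element as read along the gene's strand. They lie at chr5:33440956-33440985 (TARS1, plus), chr11:3057407-3057436 (CARS1, minus), chr12:57488053-57488082 (MARS1, plus), chr16:70289675-70289704 (AARS1, minus), chr9:92293692-92293721 (IARS1, minus) and chr7:30594834-30594863 (GARS1, plus).
TARS1: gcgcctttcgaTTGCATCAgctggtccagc
CARS1: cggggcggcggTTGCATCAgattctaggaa
MARS1: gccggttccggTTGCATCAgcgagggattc
AARS1: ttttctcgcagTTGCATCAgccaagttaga
IARS1: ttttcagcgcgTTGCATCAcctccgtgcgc
GARS1: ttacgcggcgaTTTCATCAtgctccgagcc
These 6 genes differed in their changes at 24 hours, which on the equal-median scale were 0.05 for CARS1, 0.42 for TARS1, 0.62 for AARS1, 0.72 for MARS1, 1.34 for GARS1 and 1.62 for IARS1. A match describes these letters and is no measure of binding.

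Of the 13 cytosolic enzymes listed as known ATF4 targets 12 were called higher at 24 hours on the equal-median scale, with a median of 0.72, and the 6 other cytosolic enzymes were all called higher, with a median of 1.15, beside 37.7% of all tested genes higher and 26% lower. At 1 hour the medians were 0.14 and 0.17, with 5 and 3 genes called higher, beside 25.7% of all genes. ATF4 itself was at 0.02 at 24 hours (limma adjusted p = 0.673) and had risen by 0.47 at 1 hour. Of 16 tested genes in the list of ATF4 and its other targets 10 were higher and 3 lower at 24 hours (8 to 10 higher and 5 lower under the 4 other scalings). At 1 hour 11 were higher and none lower, beside 3.39% of all genes lower (6 to 8 higher and none lower under the 4 other scalings). The amino acid transporters SLC7A5 and SLC7A1 rose by 2.36 and 2.26 at 24 hours, XPOT, the tRNA export receptor, by 1.91, and ASNS, asparagine synthetase, by 1.36. The stress genes DDIT4 and DDIT3 were lower at 24 hours (-0.98 and -0.96) and higher at 1 hour (0.95 and 0.41). Per cell, 13 of the 16 were higher and none lower at 24 hours, where 91% of all tested genes were higher.

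Other genes that handle charged tRNAs were described from a list of which 9 were tested. At 24 hours on the equal-median scale 6 were higher and 2 lower, beside 37.7% and 26% of all tested genes, with a median of 0.54. DTD1, a deacylase that clears D-amino acids from tRNA, rose by 1.80, and AARSD1, an editing protein for mischarged alanine tRNA, by 1.60. GATB, a subunit of the amidase that completes mitochondrial glutamine tRNA after EARS2, rose by 1.06, while QRSL1, its catalytic subunit, fell by 0.96 relative to the array. Per cell QRSL1 was at 0.18, beside 2.13 for GATB. The difference between the subunits was not tested. Of the elongation factors that work with the charged tRNAs, 3 of 3 tested mitochondrial genes rose: TUFM by 1.64, TSFM by 1.41 and GFM1 by 1.26. All 5 cytosolic factors were called higher as well, with a median of 0.21, but only 2 of 5 under each of the 4 other scalings, where the median ran from -0.0071 to 0.071. EEF1B2, an exchange factor, had the largest cytosolic rise, 0.93.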

How the data were processed

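RNA was labelled from 100 ng of total RNA per sample and measured on 1-colour Affymetrix arrays, 2 per group, per the labels' protocols. The authors deposited probe set intensity values on a linear scale, made with MAS5 per the submitters' processing notes; no source used here names its version or scaling target. Detection calls are absent from the deposited table. Background signal is therefore part of every dim value, and 14 members had a low-Myc mean below 194, the second brightest of 23 control probe sets that should have no target. Apart from FARSA and VARS1 these members were mitochondrial. Background thus enters the 2 compartments unequally, and its part in their contrast and in the partner pairs was not tested. Of 49293 human probe sets 45278 had 1 gene symbol, updated by Entrez identifier. Depth is unknown for arrays, whose number limits the precision.

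Log2 intensities were scaled per cell (after subtraction of a robust loess curve, span 0.7, degree 1, fitted in each array to the 100 ERCC probe sets) or centred on the human median (equal median). The curve was needed because ERCC changes differed with brightness: at 24 hours the median was -0.16 over the 34 dimmest ERCC probe sets, -1.04 over the middle 33 and -1.30 over the brightest 33. A gene was tested if its brightest probe set had a mean above the 40th percentile (33.8). Differences were tested by limma's two-sided moderated test (version 3.58.1, under R 4.3.3). All 6 arrays entered a single fit, its variance prior followed intensity, and p-values were adjusted by Benjamini-Hochberg over 12198 genes. Errors are SE of that fit, and 2-fold counts require the call too. The steps were tested on simulated data. The labels give no array batch, so a batch that coincides with a group cannot be told apart from it. In the series the low-Myc and high-Myc samples are numbered consecutively and the mid-Myc samples far later. Whether mid-Myc was also processed apart is not known, and such a batch could not be told apart from the 1-hour release.

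The members and gene lists were chosen with earlier results of these data known. Named genes were the members with the largest and smallest changes per compartment and comparison, both partners of the most and least divergent pairs, and up to 4 called genes per list; ATF4, DDIT3 and DDIT4 were added after their values were seen, and other members are given by value. Alternatives changed the scaling, ERCC curve, brightness limit, probe set rule, pseudocount (16), variance trend, arrays and replicate block.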

Additional observations from a re-analysis of the deposited data

How the results depend on the processing

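The counts of members called at 24 hours against 0 and against 1 hour stayed within 1.5 times the reported values under every alternative run (27 to 33 higher on the equal-median scale against low-Myc, 35 or 36 per cell), and so did the 1-hour count per cell (24 to 31). The 1-hour count on the equal-median scale did not: against 10, it was 1 with quantile normalization, 1 with cyclic loess, 1 as deposited, 4 with centring on the tested genes, 6 with log2(value + 16), 4 without the variance trend, and 5 to 8 with 1 array left out. The cause was not tested. The replicate numbers share only a number (correlation of same-numbered deviations 0.0022, -0.0034 and -0.0022); a replicate block gave 8 in place of 10 at 1 hour and 32 at 24 hours. The cytosolic minus mitochondrial median change at 24 hours, -0.13, was -0.24 with quantile normalization and 0.069 with the mean over probe sets, and -0.26 to -0.0093 with 1 array left out. At 1 hour, 0.10 became 0.022 with quantile normalization and 0.012 to 0.15 with 1 array left out. Between 1 and 24 hours, -0.066 became 0.064 with the mean over probe sets, -0.29 without GARS1 and KARS1, and -0.15 to 0.018 with 1 array left out. Further genes with small changes called in neither setting also changed sign. The genes that changed sign and were called in the reported fit or in the alternative were, at 24 hours, CARS1 (-0.15, tested genes), WARS1 (-0.056, mean over probe sets) and RARS2 (-0.18 with quantile normalization, -0.19 with tested genes). At 1 hour they were IARS1 (-0.068 with quantile normalization, -0.061 with cyclic loess, -0.011 as deposited), NARS1 (-0.19 and -0.18 with the first 2), CARS2 (-0.012 and -0.010 with the first 2) and QARS1 (-0.00026 with quantile normalization).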
